A study of Sus scrofa with 12 samples.

Results

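The genes described here code for the liver enzymes that join foreign and endogenous compounds to a small polar group, open epoxides, or oxidise and reduce alcohols, aldehydes and ketones. They were the genes on the porcine array whose probe sets carried a single annotated symbol of the glucuronosyltransferases (UGT), sulfotransferases (SULT), glutathione transferases (GST), epoxide hydrolases (EPHX), numbered alcohol dehydrogenases (ADH), aldehyde dehydrogenases (ALDH) and numbered aldo-keto reductases (AKR), with AKR1C1 left out. These symbols gave 28 genes of the 6765 named singly on the array, read by 40 of its 24123 probe sets. There were 11 ALDH genes, 6 GST, 4 AKR, 3 SULT, 2 EPHX, 1 UGT and 1 ADH. Of the 28, 27 passed the filter on low signal. The exception was ALDH1L2, a mitochondrial 10-formyltetrahydrofolate dehydrogenase, with signals of 5.32 to 78.0. A gene with several probe sets was read from the one with the highest mean over all arrays.

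The livers of 12 German Landrace pigs were profiled singly, each on an Affymetrix array for porcine transcripts. The animals were labelled low or high for stress response and, separately, low or high for aggressiveness, which gave low-low, low-high, high-low and high-high animals (stress response first), 3 of each. Every group held 1 female and 2 males, so that each level of either trait had 6 animals. No drug, diet or genetic change was named for any group, and the labels did not state how either trait was scored and gave no age beyond calling the animals adult. Replicates are numbered within a group, so that high-low 3 is the third listed animal with high stress response and low aggressiveness.

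In the liver, conjugation makes a compound more soluble so that it can leave with bile or urine. Glucuronosyltransferases add glucuronic acid, sulfotransferases add sulfate, and glutathione transferases add glutathione, often to the electrophiles that cytochromes P450 produce. Epoxide hydrolases turn epoxides into diols. Aldehyde dehydrogenases oxidise aldehydes to acids, and aldo-keto reductases reduce aldehydes and ketones to alcohols. Several ALDH enzymes also belong to amino acid and one-carbon metabolism.

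The signals were linear intensities as deposited, and their scaling was not stated. An array's mean signal, with 2% cut from each end, ran from 500.18 to 500.2. The arrays' median signals lay between 93.3 and 117.4 and pairs of arrays correlated at 0.945 to 0.975 on the log2 scale, while the number of arrays limits the precision. The lowest median correlations with the others were those of high-high 3, a female, at 0.9527, and high-low 3, a male, at 0.9567. Close to these were the low stress response animals low-high 3 at 0.9572 and low-low 3 at 0.9583. Results on stress response are also given without the first pair, both of high stress response, and without all 4. All 8 hepatocyte markers examined were well measured, with a summed signal of 263900 to 410600 at low and 295900 to 340200 at high stress response. Bulk tissue cannot separate fewer cells of a type from less RNA per cell.

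The comparison of high with low stress response asks which liver transcripts differ between animals that react strongly or weakly to psychosocial stress. No enzyme gene here passed the test. Most had lower mean signals in the animals with high stress response: 23 of the 27 tested had a log2 difference (high minus low) below 0 and 4 had one above 0. The median over the 27 was -0.21, where the median over all 15999 tested probe sets was 0.03 and 55.7% of these were above 0. Of the 27, 6 were lower at an unadjusted p under 0.05, against 3.13% of all probe sets, and 0 were higher, against 5.03% (8.16% in either direction). After Benjamini-Hochberg adjustment over all probe sets 0 were called, against 0% of all probe sets, and the smallest adjusted p among the members was 0.52 (limma). The differences are therefore given as values below.

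**Figure D1:**
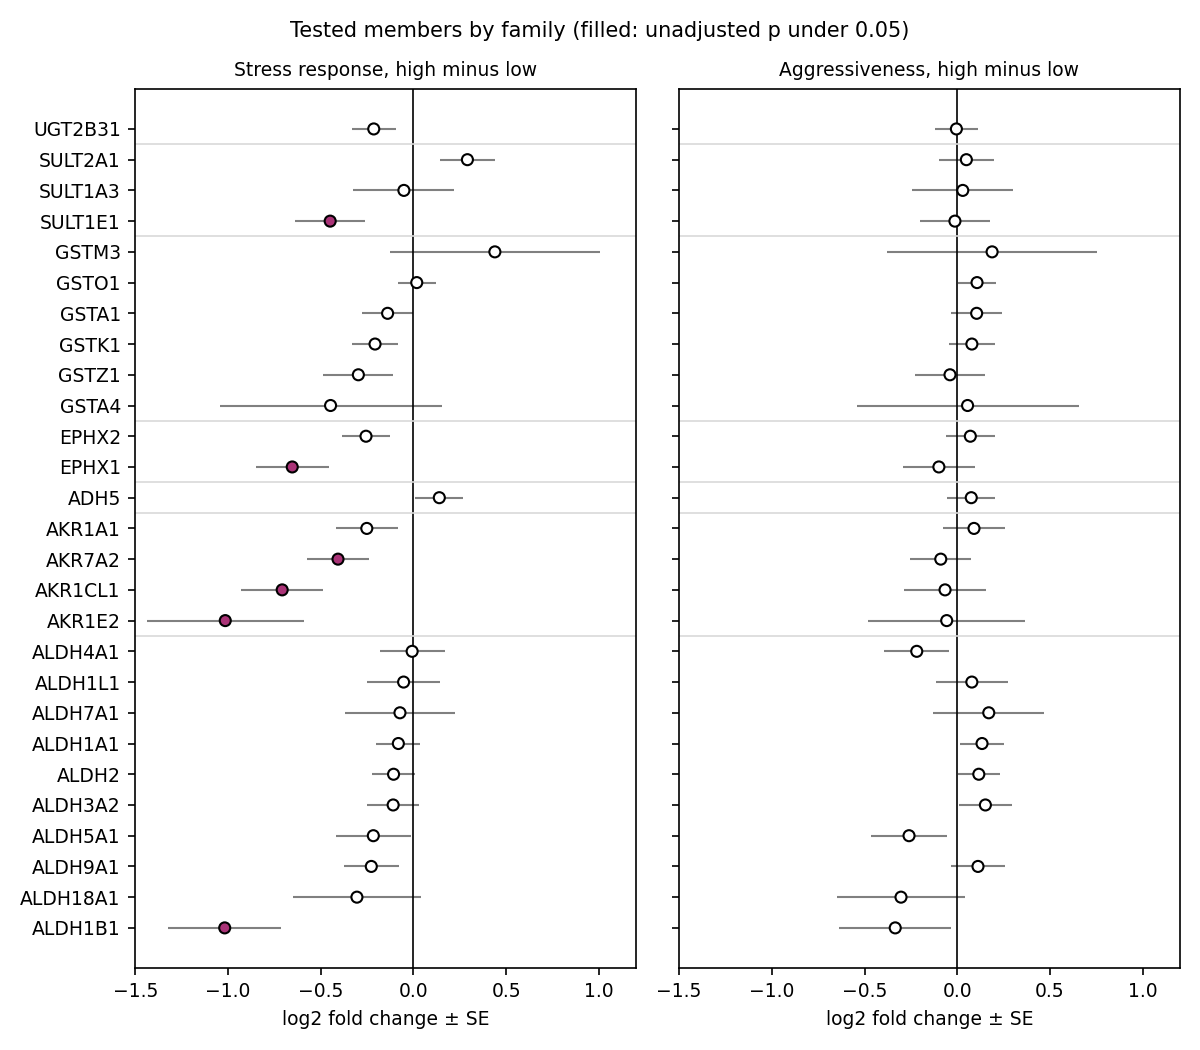
Log2 fold change with its standard error (x axis) of each tested gene (y axis, grouped by family) for stress response (left) and aggressiveness (right), each over 6 high and 6 low animals; filled points have an unadjusted p under 0.05. On the left 23 of the 27 points lie below 0 and 6 are filled; on the right 11 lie below 0 and none is filled.

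Among the conjugating enzymes, UGT2B31, the only glucuronosyltransferase with a symbol here, had a signal of 20772 ± 1973 (SD, n = 6) at low and 17917 ± 1790 (SD, n = 6) at high stress response. Of the 6 animals with high stress response, 4 had a lower signal than every animal with low stress response. The log2 difference was -0.21 ± 0.12 (SE; limma, adjusted p = 0.67). A second probe set for the gene gave -0.41 (unadjusted p = 0.046).

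The 3 sulfotransferases did not share a direction. SULT1E1, which sulfates oestrogens, ran from 666 through a median of 908 to 1071 at low stress response and from 481 through 589 to 931 at high. Of the 6 high animals 4 were below all low animals, and high-low 2 and high-high 2 lay inside the low range. The log2 difference was -0.45 ± 0.19 (SE; limma, adjusted p = 0.58), and it was -0.17 without the 4 arrays of lowest correlation. SULT2A1, which sulfates steroids such as DHEA and bile acids, differed in the opposite direction, at 21657 ± 4206 (SD, n = 6) against 26191 ± 2594 (SD, n = 6). Its log2 difference was 0.29 ± 0.15 (SE; limma, adjusted p = 0.65), and the lowest high animal, at 23444, lay above 4 of the 6 low animals. SULT1A3, a phenol sulfotransferase, had -0.05 ± 0.27 (SE).

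Of the 6 glutathione transferases, 4 were below 0 and 2 above, none at an unadjusted p under 0.05. GSTK1, found in mitochondria and peroxisomes, had a log2 difference of -0.21 ± 0.13 (SE), and GSTZ1, an enzyme of tyrosine breakdown, had -0.30 ± 0.19 (SE). In GSTZ1 high-low 3 and high-high 3 gave the lowest signals, 5607 and 5135, and the other 10 animals lay between 8559 and 10940. GSTA1 and GSTO1 differed by -0.14 ± 0.14 and 0.02 ± 0.10 (SE).

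GSTA4, which conjugates the lipid peroxidation product 4-hydroxynonenal, and GSTM3, a mu-class transferase, varied most between animals of the same group. GSTA4 signals ran from 435 to 4714, a 10.8-fold range, and GSTM3 signals from 171 to 1836, again 10.8-fold. Their within-group SD was 1.17 and 1.15 on the log2 scale, larger than in 99.6% of tested probe sets for each. The log2 difference with stress response was -0.45 ± 0.60 (SE) for GSTA4 and 0.44 ± 0.57 (SE) for GSTM3, smaller than this spread. The lowest GSTA4 signals were those of high-low 3 and high-high 3, and without these arrays its log2 difference was 0.35, and without the 4 arrays of lowest correlation 0.15. GSTM3 was at 1.31 without those 4. GSTO1, by contrast, was the most even gene of the families, with a within-group SD of 0.11 and a 1.33-fold range over all 12 animals.

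GSTA1, an alpha-class transferase abundant in liver, was read by 3 probe sets. The first and the second had signals of 31468 to 55210 and 30167 to 49059 over the 12 animals. The third split the animals instead: 9 lay between 10.1 and 72.9, while high-high 1, low-high 3 and low-low 3 had 15760, 19450 and 22986. No animal fell into the 216-fold gap between these ranges. The 3 bright animals came from 3 of the 4 groups and both sexes, so no trait level and neither sex held them alone. Alpha-class genes resemble each other in sequence, and which transcripts each probe set binds was not examined.

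**Figure D2:**
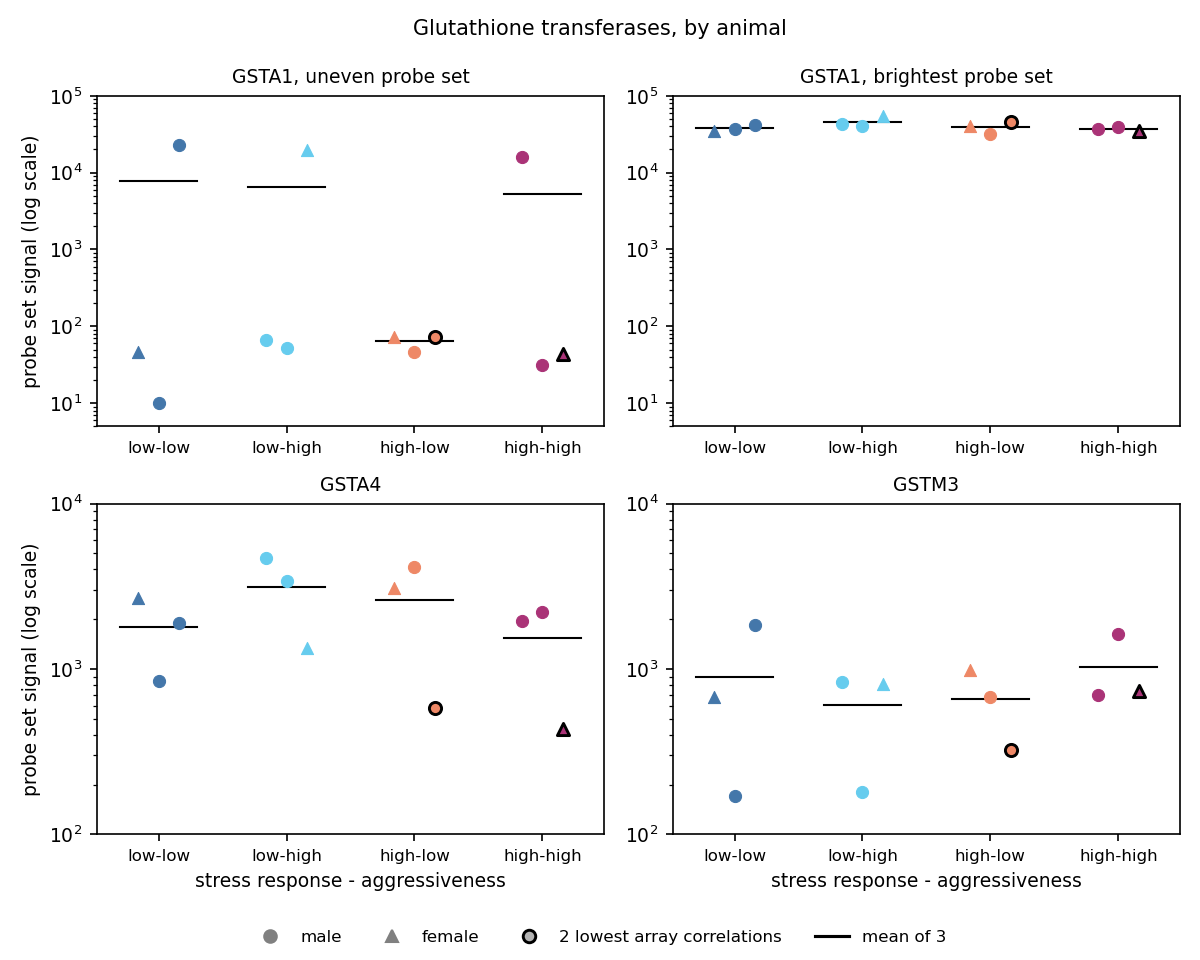
Signal (log axis) of each animal by group (stress response, then aggressiveness; 3 animals each) for both an uneven and the brightest GSTA1 probe set, GSTA4 and GSTM3; lines are group means of 3, triangles females, and black rims the 2 arrays with the lowest correlations. In the upper left panel 3 animals lie at 15760 or above and 9 at 72.9 or below, while all 12 lie at 31468 or above in the upper right panel.

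Both epoxide hydrolases had lower means at high stress response. EPHX1, the microsomal enzyme that opens epoxides of drugs and pollutants, had signals of 15281, 14618 and 11851 in the low-low animals and 14142, 13962 and 14168 in the low-high animals. The high-low animals had 11110, 12169 and 6516, and the high-high animals 9518, 10307 and 5626. Of the 6 high animals, 5 lay below every low animal, and the overlap came from high-low 2, which lay above low-low 3. The means were 14004 ± 1157 and 9208 ± 2599 (SD, n = 6 each). The fitted log2 difference was -0.65 ± 0.20, which is 1.57-fold lower on that scale (SE; limma, unadjusted p = 0.0062, adjusted p = 0.52). The lowest 2 signals were those of high-low 3 and high-high 3. Without them the log2 difference was -0.37 and its unadjusted p was still under 0.05. Without the 4 arrays of lowest correlation it was -0.43. EPHX2, the soluble enzyme that acts on epoxides of fatty acids, had a log2 difference of -0.26 ± 0.13 (SE; limma, adjusted p = 0.65).

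The 4 aldo-keto reductases were all below 0, against 44.3% of all probe sets, with a median log2 difference of -0.56. Of the 4, 3 were lower at an unadjusted p under 0.05, against 3.13% of all probe sets (8.16% in either direction). AKR1CL1 ran from 3820 through a median of 4890 to 7994 at low stress response and from 2481 through 2677 to 4631 at high. Here 4 of the 6 high animals lay below every low animal, and high-high 2 and high-low 2 lay within the low range. Its log2 difference was -0.71 ± 0.22 (SE; limma, unadjusted p = 0.0078, adjusted p = 0.52). A second probe set gave 0.13 ± 0.33 (SE), but it was dim. Its arithmetic mean signal was 60.8, against 4234 for the chosen one. The filter limit, set on the log2 scale, stood for a signal of 40.6. The mean over the gene's probe sets, which includes this dim one, gave -0.29, with an unadjusted p above 0.05. Without the 4 arrays of lowest correlation the log2 difference was -0.38, again above 0.05.

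AKR1E2, which reduces 1,5-anhydrofructose, had a signal of 531 ± 132 at low and 307 ± 225 at high stress response (SD, n = 6 each). The high animals spanned 86.9 to 641, wider than the 308 to 651 of the low animals, and 4 of the 6 lay below them all. The log2 difference was -1.02 ± 0.42 (SE; limma, adjusted p = 0.58). AKR7A2, which reduces succinic semialdehyde and aflatoxin dialdehyde, had 7008 ± 1089 and 5338 ± 1161 (SD, n = 6 each), a log2 difference of -0.41 ± 0.16 (SE; limma, adjusted p = 0.57), and 3 of the 6 high animals lay below all low ones. AKR1A1, a general aldehyde reductase, had -0.25 ± 0.17 (SE). Its signals overlapped except for high-low 3 and high-high 3, at 6414 and 7953, which were below every other animal.

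In RefSeq's gene order for the pig assembly Sscrofa11.1, AKR1E2 lies beside AKR1C1 with 0 protein-coding genes between them, and AKR1CL1 lies on the other side with 2 between it and AKR1C1. GSTA1 and GSTA4 are also separated by 2 protein-coding genes, ALDH4A1 and AKR7A2 by 3, and UGT2B31 and SULT1E1 by 9. GSTA1 and GSTA4, though close, had a log2 difference with stress response of -0.14 and -0.45 and very unequal spread. The array files named no genome build, so positions are not printed.

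**Figure D3:**
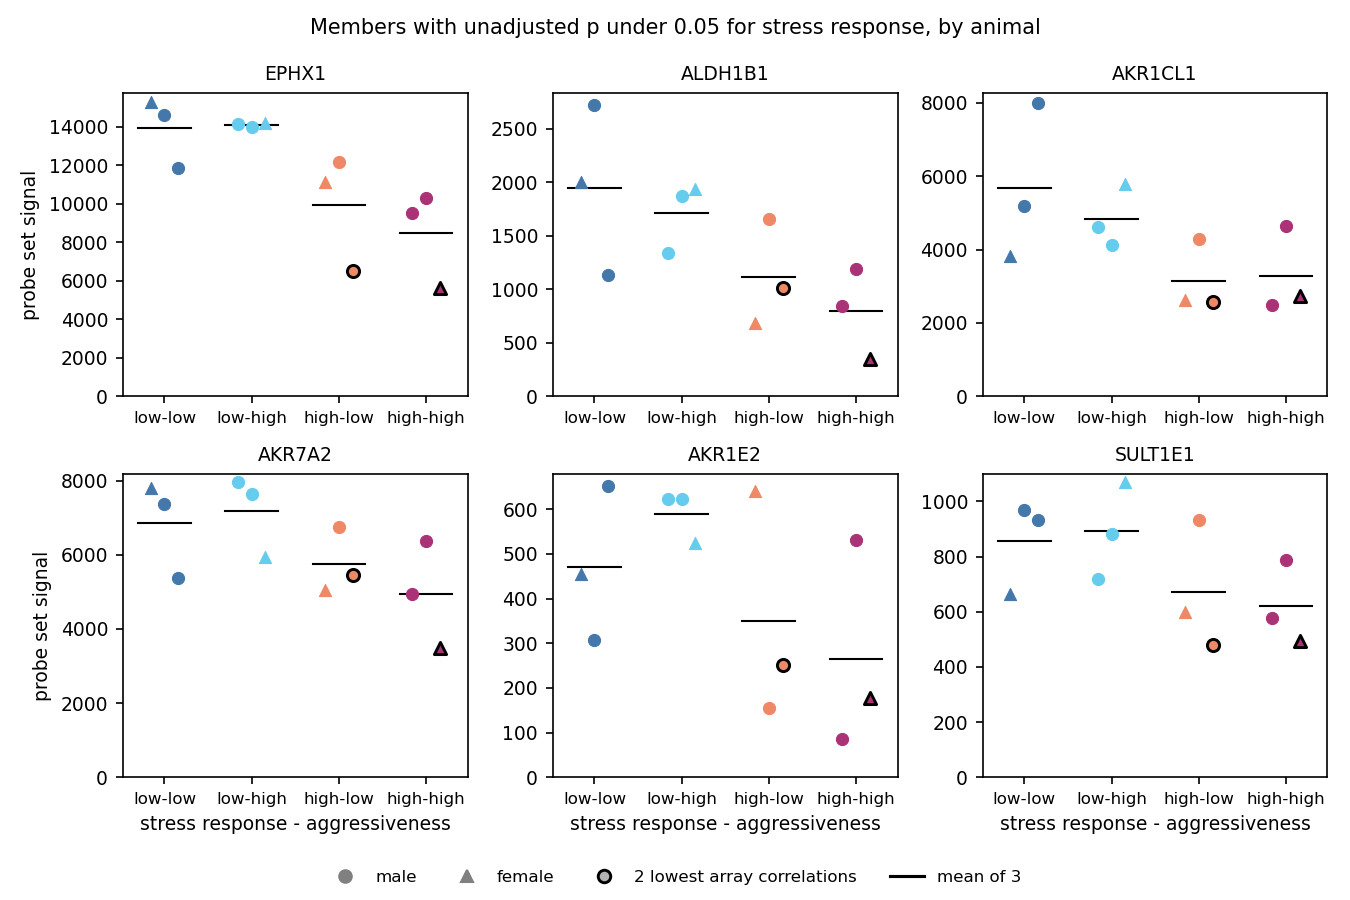
Signal (linear axis from 0) of each animal by group for the 6 genes with an unadjusted p under 0.05 for stress response; lines are means of 3, triangles females, and black rims the 2 arrays with the lowest correlations. In every panel the high stress response animals overlap the low ones; in EPHX1 only high-low 2, at 12169, reaches above the lowest low animal, at 11851.

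All 10 tested aldehyde dehydrogenases had a log2 difference below 0 with stress response, but the median was -0.11 and 1 had an unadjusted p under 0.05. That gene was ALDH1B1, a mitochondrial enzyme that oxidises acetaldehyde and retinal. The low-low animals had signals of 2000, 2717 and 1132 and the low-high animals 1342, 1875 and 1932. The high-low animals had 689, 1655 and 1010, and the high-high animals 848, 1191 and 349. Thus 4 of the 6 high animals lay below all low animals, and high-high 3 had the lowest signal. The means were 1833 ± 557 and 957 ± 447 (SD, n = 6 each). The fitted log2 difference was -1.02 ± 0.30, which is 2.02-fold lower on that scale (SE; limma, unadjusted p = 0.0061, adjusted p = 0.52). Among males alone the log2 difference was -0.54, with an unadjusted p above 0.05.

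The other aldehyde dehydrogenases had smaller differences. ALDH2, the main mitochondrial enzyme for acetaldehyde, had a log2 difference of -0.11 ± 0.11 (SE), and ALDH1A1, the cytosolic enzyme that makes retinoic acid, had -0.08 ± 0.12 (SE). ALDH9A1, an enzyme of carnitine synthesis, had -0.23 ± 0.15 (SE), and ALDH5A1, which oxidises succinic semialdehyde, had -0.22 ± 0.20 (SE). ALDH18A1 of proline synthesis had -0.31 ± 0.34 (SE). For ALDH3A2, which acts on fatty aldehydes, the chosen probe set gave -0.11 ± 0.14 and another 0.28 ± 0.14 (SE), so its probe sets differed in sign. The others, ALDH1L1 of one-carbon metabolism, ALDH7A1 of lysine breakdown and ALDH4A1 of proline breakdown, lay between -0.07 and -0.01. Without the 2 arrays of lowest correlation ALDH1L1 and ALDH4A1 were both at 0.15, and under quantile normalization at 0.005 and 0.015. Without the 4 arrays ALDH1A1 was at 0.04, ALDH7A1 at 0.07, ALDH4A1 at 0.12 and ALDH1L1 at 0.26. The second ALDH4A1 probe set gave 0.02 ± 0.30 (SE). ADH5, which handles formaldehyde bound to glutathione and was the only alcohol dehydrogenase with a numbered symbol here, had 0.14 ± 0.13 (SE).

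A score per animal, the mean over the 27 genes of the log2 value minus that gene's mean over the 12 animals, summarises the families within each animal. The low stress response animals lay between 0.02 and 0.21. The high animals ran from -0.43 in high-high 3 and -0.29 in high-low 3 up to 0.07 in high-low 2 and 0.14 in high-high 2, both inside the range of the low animals, and the within-group SD was 0.18. High-high 3 or high-low 3 held the lowest signal of all 12 for 13 of the 27 genes. These arrays were picked for their low correlations over all tested probe sets. The same count over all probe sets was not made, so 13 cannot be read as particular to these enzymes.

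**Figure D4:**
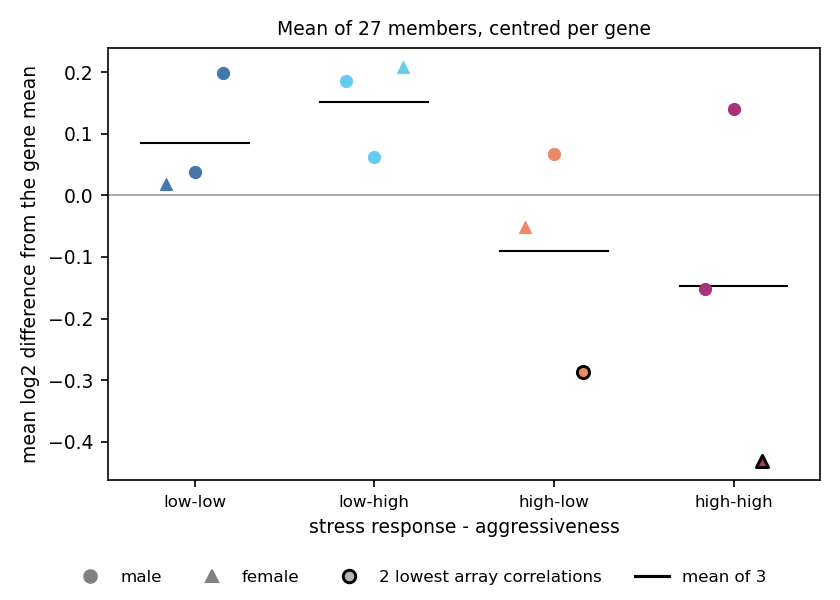
Mean over the 27 tested genes of the log2 difference from each gene's mean (y axis) for each animal by group; lines are means of 3, triangles females, and black rims the 2 arrays with the lowest correlations. The 2 lowest values, -0.43 and -0.29, are on those arrays, and high-high 2 at 0.14 and high-low 2 at 0.07 lie among the low stress response animals.

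Without high-low 3 and high-high 3, 20 of the 27 genes were below 0 and the median was -0.13. There were then 3 genes lower at an unadjusted p under 0.05 (AKR1CL1, ALDH1B1 and EPHX1), against 2.33% of all probe sets. Without the 4 arrays of lowest correlation, an alternative added after the data were seen, 17 were below 0 and the median was -0.08. There were then 3 lower (AKR7A2, ALDH1B1 and EPHX1) and 2 higher (GSTM3 and SULT2A1) at an unadjusted p under 0.05. Of all probe sets, 1.925% were lower at this mark and 5.06% were under it in either direction. Leaving out 1 animal also gave 3 for low-high 2, high-high 1 or high-high 3, as did the males alone. All of these genes were lower. Of all probe sets, 2.86%, 3.54% and 2.21% were then lower at this mark, and 1.52% in the males. In either direction the shares were 7.64%, 7.96% and 5.75%, and 5.55% in the males. The log2 ratio of 3' to 5' signal, averaged over the control transcripts as a mark of RNA quality, was 2.25 ± 0.09 at low and 2.22 ± 0.14 at high stress response (SD, n = 6 each). The controls were unlike: low and high means were 0.790 and 0.823 for EF1A, 0.793 and 0.822 for GAPDH, and 5.173 and 5.005 for actin. Of 5 Kupffer cell markers, CD163 had a log2 difference of 0.57 and the dim MARCO -0.78. Mean signals at low and high stress response were 1300 and 1919 for CD163, and 64.6 and 32.0 for MARCO. The summed signal of the list ran from 14860 to 19610 at low and 15880 to 21900 at high. The 8 hepatocyte markers differed by -0.02 to 0.09. The part of macrophage content in the enzyme values was not tested.

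Related genes were listed by function. Of 22 cytochromes P450 and flavin monooxygenases, which supply substrates to conjugation, 19 were below 0, with a median of -0.26, and 2 had an unadjusted p under 0.05, CYP1A1 (-1.37) and FMO5 (-0.59), against 8.16% of all probe sets in either direction. The 13 other alcohol, aldehyde and carbonyl enzymes had 11 below 0 and a median of -0.18, with HSD17B2, which inactivates oestradiol and testosterone, at -0.69. The 10 genes that supply conjugation cofactors had a median of 0.03, and PAPSS2, which makes the sulfate donor PAPS, was at 0.67 (unadjusted p = 0.023). Among 4 other conjugating enzymes, the methyltransferases INMT and GNMT had opposite signs, -0.86 and 0.41. All 5 enzymes that remove conjugates were below 0, none at an unadjusted p under 0.05.

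Of 5 transporters, 1 had an unadjusted p under 0.05, against 8.16% of all probe sets in either direction. It was ABCC2, the canalicular pump that exports conjugates into bile, at -0.43 (limma, unadjusted p = 0.037). Neither the 7 regulators nor the 10 other targets of NFE2L2, a factor that induces many conjugating enzymes, had a gene at an unadjusted p under 0.05, and the median of the latter was -0.02. The 5 pericentral markers of the liver lobule had 0 such genes and the 6 periportal ones had 1, ARG1 of the urea cycle at 0.46, again against 8.16% of all probe sets. No gene of these lists passed after adjustment over all probe sets.

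The comparison of high with low aggressiveness asks the same of the other trait. None of the 27 genes had an unadjusted p under 0.05 (limma), against 3.22% of all probe sets, and 0 had an adjusted p under 0.05, against 0%. The log2 differences ran from -0.33 (ALDH1B1, ± 0.30 SE) to 0.19 (GSTM3, ± 0.57 SE), with 16 above 0 and a median of 0.06. The narrowest errors belonged to GSTO1, at 0.11 ± 0.10, ALDH2, at 0.12 ± 0.11, and UGT2B31, at 0.00 ± 0.12 (SE). EPHX1, AKR1CL1 and SULT1E1 had -0.10 ± 0.20, -0.07 ± 0.22 and -0.01 ± 0.19 (SE). The 3' to 5' ratio of the EF1A control, on the log2 scale, did not overlap between the levels, from 0.757 to 0.993 at high and 0.685 to 0.748 at low aggressiveness. With the averaged 3' to 5' ratio as a covariate 1 gene, ALDH5A1, came under an unadjusted p of 0.05, against 2.825% of all probe sets.

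The interaction tests whether the stress response difference depends on aggressiveness. One gene of the 27 had an unadjusted p under 0.05, against 3.87% of all probe sets, and 0 had an adjusted p under 0.05, against 0%. It was ALDH18A1, which makes the precursor of proline from glutamate. Its signals were 684, 607 and 306 in the low-low, 800, 836 and 442 in the low-high, 679, 708 and 614 in the high-low and 601, 217 and 259 in the high-high animals. The high-low animals were tightly grouped, and the high-high animals held both lowest signals but overlapped each of the other groups except high-low.

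The stress response difference for ALDH18A1 was 0.39 ± 0.41 (SE) at low and -1.0 ± 0.41 (SE) at high aggressiveness on the log2 scale, and the interaction was -1.39 ± 0.58 (SE; limma, unadjusted p = 0.035, adjusted p = 1.00). Its unadjusted p was above 0.05 without the 4 arrays of lowest correlation (-1.24), without low-low 3 (-1.0), and also without low-high 1, low-high 2, high-low 1, high-low 2, high-high 2 or high-high 3. The interactions of GSTA4, at -1.42 ± 1.17 (SE), and of GSTA1, at -0.33 ± 0.27 (SE), did not reach an unadjusted p under 0.05. That of GSTA4 did so without the 4 arrays of lowest correlation, against 4.11% of all probe sets. It also did so without high-low 3, against 4.82%.

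Over the 4 groups together, 2 genes had an unadjusted p under 0.05 in the moderated F test, against 4.69% of all probe sets, and 0 had an adjusted p under 0.05, against 0%. They were ALDH1B1 (limma, F = 4.15, unadjusted p = 0.036, adjusted p = 1.00) and EPHX1 (limma, F = 3.72, unadjusted p = 0.048, adjusted p = 1.00). In both, the high-high mean was the lowest of the 4 group means. The other 25 genes had larger p-values.

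Sex was in the model because each group held both. One gene, SULT1A3, had an unadjusted p under 0.05, against 5.21% of all probe sets, and 0 had an adjusted p under 0.05, against 0.0688%. SULT1A3 ran from 2549 to 5624 in the 4 females and from 3974 to 9591 in the 8 males, a log2 difference (males minus females) of 0.81 ± 0.29 (SE; limma, unadjusted p = 0.016, adjusted p = 0.88). The sexes overlapped, and without the female low-low 1 the difference was 0.56 with an unadjusted p above 0.05. It lost that mark without the female high-low 1 as well. The second probe sets of ALDH3A2 and ALDH7A1 gave -0.49 ± 0.15 and 0.46 ± 0.15 (SE), whereas their chosen ones gave -0.04 and 0.07.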

How the data were processed

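The deposited values were probe set intensities on a linear scale, made by the authors with GCOS 1.1.1, per the submitters' processing notes. The summary of probes and the scaling were not given in the sources used here. The 124 control probe sets and then the 33.3% with the lowest mean of log2(signal + 16) were left out, which left 15999. The lowest mean kept stood for a signal of 40.6 when turned back to the linear scale, which is not an arithmetic mean of signals. Values were taken as log2(signal + 16), so folds of dim genes are understated. Linear models in limma 3.58.1 (R 4.3.3) covered all of these, with stress response, aggressiveness and sex (8 residual degrees of freedom), and with the interaction added (7) for the interaction and the 4 groups. Adjusted p is Benjamini-Hochberg over the 15999, called under 0.05, and unadjusted p under 0.05 is a descriptive count. Names came from the array's annotation: 10099 probe sets had 1 symbol, 198 several and 13826 none. Signals of different genes were not tested against each other. Mean signals across probe sets served only to choose a gene's probe set and the genes to name.

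The members and lists were chosen with earlier results of these data known. Named were genes with an unadjusted p under 0.05 in a comparison, those with the highest and lowest mean of each family, the 5 with the largest spread within groups, and the rest of each family briefly. The fitting code was tried on simulated data with independent normal errors, as a check of the code and not of the results given here. Alternatives were other filters, added constants of 1 and 64, normalizations and variance models, other terms, males only, the mean over probe sets, and arrays left out. Each animal gave 1 array. Promoter motifs were not analysed here. Figures used matplotlib 3.10.9 in Python 3.11.15.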

Additional observations from a re-analysis of the deposited data

Results flagged for a closer look

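Within the 6 animals at 1 level of a trait, 5 values stood farther from their nearest neighbour than Dixon's 95% limit allows. They came from 52 sets of values over 13 genes. Chance marks about 1 set in 20, but the genes were chosen partly by p or spread in these same values. Each animal also entered once per trait, so the 5 flags cannot be set against that rate. EPHX1 in low-low 3, at 11850, was below the next low stress response animal at 13960, and in high-low 3, at 6516, it was below the next low aggressiveness animal at 11110. ALDH18A1 in low-low 3, at 306.1, was below the next low aggressiveness animal at 606.5. ALDH1L2, which was under the filter on low signal, was at 6.53 in high-low 1, with 54.71 next among high stress response animals, and at 6.605 in low-high 1, with 46.71 next among high aggressiveness animals.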

How the results depend on the processing

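The number of genes with an unadjusted p under 0.05 moved by more than 1.5 times in these cases, and the cause was not tested. For stress response it was 6, and 3 without the 2 arrays with the lowest correlations or in males only, and 3 to 7 with 1 animal left out. The share of all probe sets moved too, from 8.16% to 4.93% without those 2 arrays and 5.55% in males only. With 1 animal left out that share was 5.75% to 9.19%. For aggressiveness the number was 0, and 1 with the 3' to 5' ratio as covariate, against 3.22% and 2.825% of all probe sets. For the interaction the number was 1, against 3.87% of all probe sets (shares in brackets from here on). It was 0 without the 2 arrays with the lowest correlations (3.82%) and 0 with the 3' to 5' ratio (4.34%). Males only gave 2 (3.925%), and leaving out 1 animal gave 0 to 2 (3.475% to 4.82%). For the 4 groups the number was 2 (4.69%), with 1 under no filter (5.21%), an added constant of 1 (4.46%) or median centring (4.49%). It was 0 without the 2 arrays with the lowest correlations (4.025%) and 0 in males only (4.15%). With 1 animal left out it was 0 to 4 (3.71% to 5.46%). For sex the number was 1 (5.21%), and 0 to 4 with 1 animal left out (4.29% to 6.87%). Leaving out the 4 arrays with the lowest correlations, added after the data were seen, gave 5 for stress response (5.06%) and 1 for aggressiveness (4.17%). It gave 1 for the 4 groups (4.08%) and 4 for sex (6.07%). For the interaction the number stayed at 1 (4.11%), with GSTA4 in place of ALDH18A1. The GSTA4 difference with stress response, -0.45, was 0.35 without the 2 arrays with the lowest correlations and 0.15 without the 4 lowest. Over 28 alternatives, the unadjusted p for stress response stayed under 0.05 in 28 for EPHX1, 27 for ALDH1B1, 26 for AKR1CL1, 20 for AKR1E2, 20 for AKR7A2 and 15 for SULT1E1, all below 0 throughout. No paired analysis was possible because the labels give no replicate numbers shared between groups.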
